A study of Mus musculus with 16 samples.

Results

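The G1 cyclins and CDK inhibitors described here are 9 genes: Ccnd1, Ccnd2, Ccnd3, Ccne1, Cdk4, Cdk6, Cdkn1a, Cdkn1b and Rb1. Their members on the array were the probe sets to which the platform annotation gives exactly 1 gene symbol, where that symbol is one of the 9. This rule found 13 of the 12422 probe sets tested, for 8 of the 9 genes, among 8251 genes named on the array by such probe sets. Ccnd1, Cdk4, Cdkn1a, Cdkn1b and Rb1 had 2 probe sets each, and Ccnd2, Ccnd3 and Ccne1 had 1 each. Cdk6, which encodes the other kinase partner of the D cyclins, had no single-symbol probe set and was not analysed here.

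D-type cyclins bind CDK4 and CDK6 in the G1 phase of the cell cycle, and the complexes phosphorylate the retinoblastoma protein, encoded by Rb1. Phosphorylation releases E2F transcription factors, which switch on genes of DNA replication, and cyclin E with CDK2 carries the cell into S phase. Cdkn1a (p21) and Cdkn1b (p27) encode inhibitors of these kinases. Adult retina consists largely of neurons and glia that have left the cell cycle, whereas newborn cortex still holds dividing progenitors beside young neurons.

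Transcript levels were measured on 16 1-colour oligonucleotide arrays in 4 groups, to assess how measurements vary between replicates and between sites. Adult retina came from a pool of 350 C57/B6 mice and was run on 5 arrays at the first site and 3 at site 2. Cortex of postnatal day 1 came from a pool of 19 mice, again with 5 arrays at the first site and 3 at site 2. The sample descriptions call the cortex donors C57/B6 and the design text calls them Swiss-Webster, so organ, age and possibly strain cannot be told apart. The pool sizes stand in the first-site descriptions; that site 2 used the same pools is stated in the design text. No treatment or genotype is named for any group. Each array is an aliquot of 1 of these RNA pools, so every p-value below measures technical spread between arrays and none measures spread between animals.

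Levels are given as scaled intensities, with the median of each array set to 100, and arrays are listed in replicate order. Differences are on the log2(intensity + 16) scale after centring each array on its median, a scale that understates changes at low signal, and carry their SE. Adjusted p-values are limma's, over all 12422 probe sets, and a probe set was called below 0.05. Background was taken on each array as the highest of 13 control probe sets with no added target, which lay between 12.6 and 37.0 scaled units. From 68.5% to 78.8% of the probe sets on an array exceeded it.

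The labelled tissues carried their defining markers: all 6 measured rod genes were called higher in retina at both sites, and all 5 measured genes of immature and projection neurons were called lower. One array stood apart. Cortex replicate 2 of site 2 had the lowest median intensity, 45.7 against 88.5 to 216 on the other 15 arrays, and a 5' to 3' signal ratio for Gapdh of 0.603 against 1.05 to 1.31. Its correlation with the other site 2 cortex arrays fell as low as 0.940, whereas the pairs within the other groups lay between 0.980 and 0.991. Where leaving it out ended a call of a member, or turned or moved by over 1.5 times a difference printed for one, that is said beside the result.

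Between the tissues, the members split by gene rather than moving together. At the first site 8 of the 13 probe sets were called (61.5%), 2 higher and 6 lower in retina, where 47.1% of all probe sets were called, 21.9% higher and 25.2% lower. At site 2, 7 of 13 were called (53.8%), 1 higher and 6 lower, where 32.5% of all probe sets were called, 16.7% higher and 15.9% lower. The median difference of the 13 was -0.33 at the first site and -0.67 at site 2, beside -0.06 and -0.02 over all probe sets. On the centred log2 scale the arrays of the tissues were fully separate for 7 of the 13 at the first site, as for 37.9% of all probe sets, and for 9 at site 2, as for 44.2%. Called at both sites in the same direction were 6 probe sets of 5 genes: Ccnd3 higher, and Ccnd2, Cdk4 by both probe sets, Cdkn1a by 1 and Rb1 by 1 lower in retina. These calls and the others between the tissues held on leaving out each array in turn. Without centring, 5 of the 7 calls at site 2 were lost, those of Ccnd3, Cdk4 by both probe sets, Cdkn1a and Rb1, and 781 of all probe sets were called there. In bulk RNA, fewer cells of a type and less RNA per cell cannot be told apart.

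**Figure D1:**
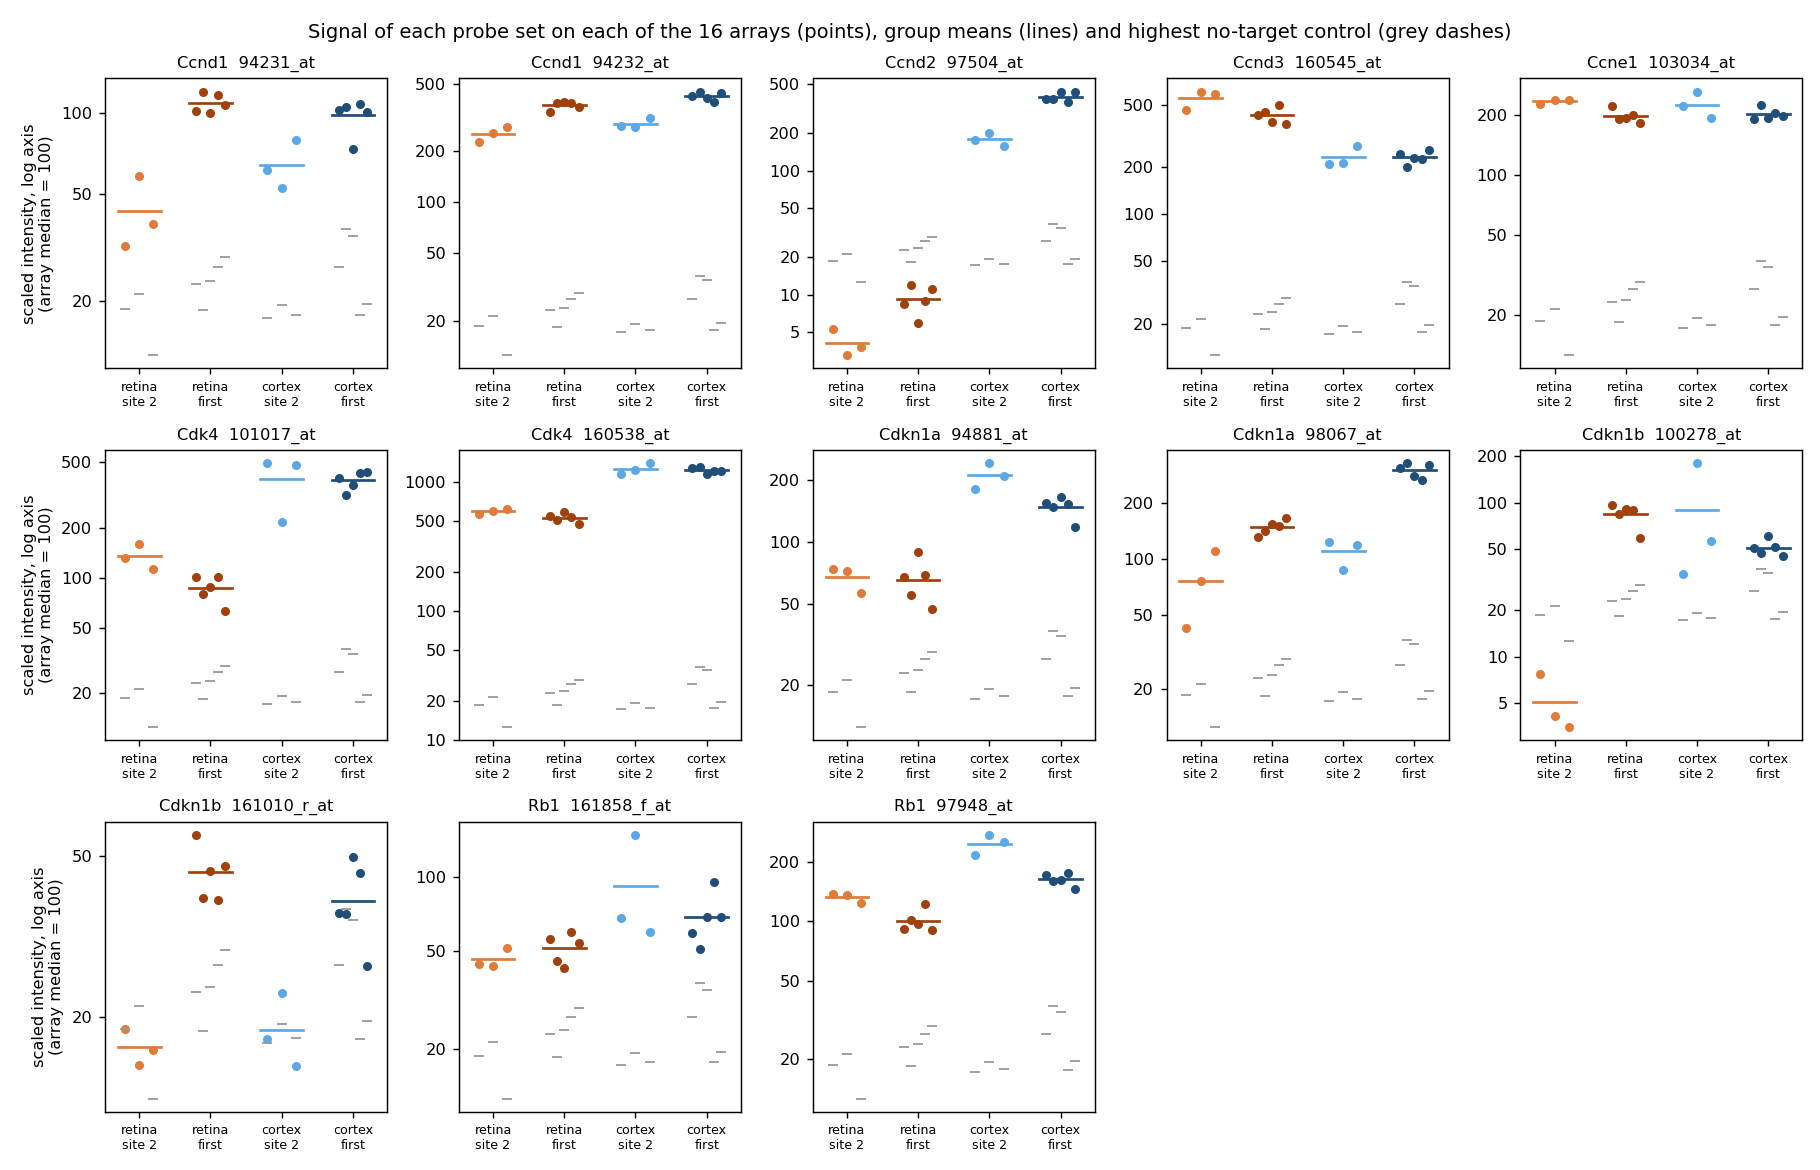
Scaled intensity (log axis, array median 100) of the 13 probe sets on each array, by group; points are arrays, lines are group means and grey dashes are the highest no-target control of each array. Ccnd2 lay below the dashes on all 8 retina arrays and far above them on all 8 cortex arrays, and Cdkn1b by probe set 100278_at lay below them on the 3 retina arrays of site 2 only.

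**Figure D2:**
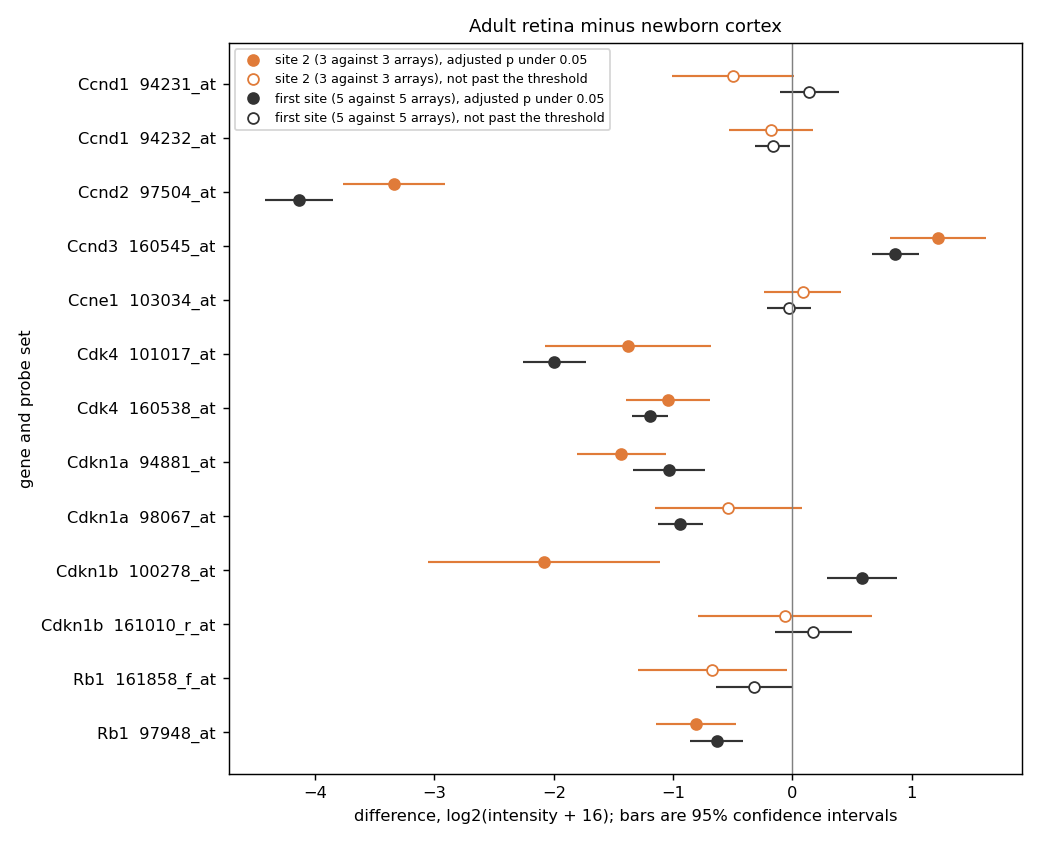
Retina minus cortex difference of each probe set on the log2(intensity + 16) scale, at site 2 and at the first site; bars are 95% confidence intervals and filled points passed an adjusted p of 0.05. Ccnd2 had the most negative difference at both sites, Ccnd3 was positive at both, and Cdkn1b by probe set 100278_at changed sign between them.

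The 3 D cyclins showed 3 different patterns. Ccnd2, which encodes the D cyclin known for its role in cortical and cerebellar progenitors, was read by probe set 97504_at. At the first site it had 8.34, 11.9, 5.95, 8.93 and 11.1 scaled units in retina, against 378, 376, 435, 359 and 429.9 in cortex. Every retina array was at or under background and every cortex array was far above it. The difference was -4.14 ± 0.13 with a limma adjusted p of 2.85e-13. Because the retina values were at background, the fold is a bound, computed from scaled intensities without the added constant and with the dim values raised to background: Ccnd2 was at least 16.4-fold lower in retina. At site 2 its values were 5.24, 3.26 and 3.81 in retina and 177, 203 and 157 in cortex, again with no retina array above background. The site 2 difference was -3.34 ± 0.19 (limma adjusted p = 8.34e-07), at least 10.4-fold lower in retina and at least 9.75-fold without cortex replicate 2. The smaller difference at site 2 gave an interaction of tissue and site of 0.80 ± 0.21 (limma adjusted p = 0.0432). That call was lost in 13 of 16 fits that each left out 1 array. It was kept without retina replicate 2 or 5 of the first site or without cortex replicate 2 of site 2. With a constant of 1 in place of 16 the interaction was 0.15.

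Ccnd3, the D cyclin found in many differentiated tissues, went the other way. Probe set 160545_at had 432, 451, 394, 502 and 381 scaled units in first-site retina and 244, 202, 229, 226 and 258 in first-site cortex. The tissues did not overlap, and Ccnd3 was higher in retina by 0.86 ± 0.09 (limma adjusted p = 6.97e-07). At site 2 it had 467, 613 and 595 in retina against 210.1, 213 and 276 in cortex. Again every retina array lay above every cortex array, with a difference of 1.22 ± 0.18 (limma adjusted p = 0.000524). The interaction with site was 0.36 ± 0.19 and did not pass (limma adjusted p = 0.334).

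Ccnd1, the D cyclin with the chief role in embryonic retinal progenitors, was not called between the tissues by either probe set. By 94232_at it had 341, 386, 389.8, 382 and 363 scaled units in first-site retina and 421, 448, 409, 387 and 441 in first-site cortex. At site 2 the values were 226, 255 and 276 in retina and 282, 277 and 313 in cortex. The first-site groups overlapped by 1 cortex array, and in scaled units the site 2 retina arrays lay just below the cortex arrays, which they overlapped on the centred log2 scale. The difference was -0.17 ± 0.07 at the first site, with a 95% interval of -0.31 to -0.02 (limma adjusted p = 0.0625), and -0.18 ± 0.16 at site 2, with an interval of -0.54 to 0.17 (limma adjusted p = 0.489), and -0.27 at site 2 without cortex replicate 2. At the first site it passed under 3 of the alternative settings, with adjusted p-values of 0.0298 to 0.0435. Probe set 94231_at had 102, 121, 100.4, 117 and 107 in first-site retina against 103, 106, 73.9, 109 and 101 in first-site cortex, and 32.2, 58.6 and 38.7 in site 2 retina against 61.4, 52.5 and 79.3 in site 2 cortex. In scaled units the groups overlapped at both sites, whereas on the centred log2 scale the site 2 groups did not. The differences of 0.14 ± 0.12 and -0.50 ± 0.23 did not pass (limma adjusted p = 0.358 and 0.131), although that of site 2 did with all 16 arrays in 1 fit (limma adjusted p = 0.0308). Both Ccnd1 probe sets were above background on all 8 retina arrays.

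Ratios of 2 D cyclins within an array do not depend on centring, and only their change between tissues is interpretable, not their size. They were taken between intensities with the constant of 16 added. The log2 ratio of Ccnd1 (94232_at) to Ccnd3 was -0.20 ± 0.16 in first-site retina and 0.82 ± 0.15 in first-site cortex (SD, n = 5 each), a difference of -1.03. The site 2 ratio was -1.10 ± 0.11 in retina against 0.30 ± 0.12 in cortex (SD over 3 arrays each), a difference of -1.40. Ccnd2 was at or under background on every retina array, so ratios that contain it have only a bound, computed like that of Ccnd2 itself. Relative to Ccnd3, Ccnd2 was at least 30.6-fold lower in retina at the first site and at least 24.9-fold lower at site 2. Relative to Ccnd1 the bound was at least 14.5-fold lower in retina at the first site and at least 9.01-fold lower at site 2. No retina array overlapped a cortex array in any of the 3 ratios with the constant added. Each of the 3 had, with first-site arrays, a two-sided exact permutation p of 0.0079, unchanged by adjustment over the 3 pairs and the smallest that 5 against 5 arrays allow. At site 2 each had an exact permutation p of 0.1, the smallest possible with 3 against 3 arrays. For Ccnd2 over Ccnd3 these p-values were fixed in advance, since each gene alone fully separated the tissues, in opposite directions. Those of Ccnd2 over Ccnd1 follow from the wide gap in Ccnd2, as Ccnd1 differed little. The change in Ccnd1 over Ccnd3 came mostly from Ccnd3, which alone fully separated the tissues at both sites. None of the 3 ratios adds evidence beyond the differences of the single genes.

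**Figure D3:**
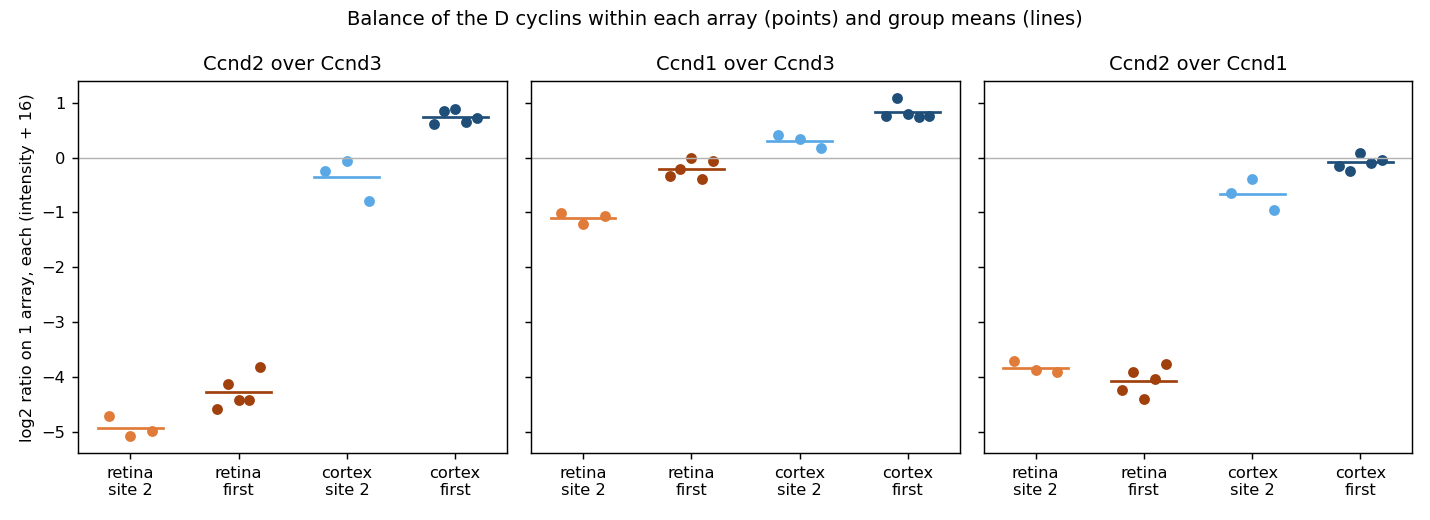
Log2 ratio of 2 D cyclin probe sets on the same array, each as deposited intensity plus 16, for the 3 pairs, with Ccnd1 read by 94232_at; points are arrays and lines are group means. In each panel all retina arrays lay below all cortex arrays at both sites.

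Ccne1, which encodes cyclin E1, the partner of CDK2 at the entry into S phase, was not called. Probe set 103034_at had 222, 189.7, 193, 199 and 182 scaled units in first-site retina and 191, 224, 194, 204 and 197 in first-site cortex. Site 2 values were 227, 237 and 238 in retina and 221, 261 and 193 in cortex. The tissues overlapped at both sites. The differences were -0.03 ± 0.09 at the first site (95% interval -0.21 to 0.16, limma adjusted p = 0.837) and 0.09 ± 0.15 at site 2 (-0.24 to 0.41, limma adjusted p = 0.784), and 0.14 at site 2 without cortex replicate 2.

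Cdk4, the kinase partner of the D cyclins, was lower in retina by both probe sets at both sites. The brighter probe set, 160538_at, had 549.7, 508, 583, 536 and 475 scaled units in first-site retina, against 1289, 1311, 1154, 1214 and 1216 in first-site cortex. At site 2 it had 565, 601 and 616 in retina, against 1167, 1241 and 1399 in cortex. No retina array came near a cortex array. Its difference was -1.19 ± 0.07 at the first site (limma adjusted p = 6.47e-10) and -1.04 ± 0.16 at site 2 (limma adjusted p = 0.00059). The dimmer one, 101017_at, had 101, 80.2, 88.7, 101 and 62.6 in first-site retina and 400.4, 317, 363, 429 and 435 in first-site cortex, with 133, 161 and 113 in site 2 retina and 492, 219 and 482 in site 2 cortex. Its groups did not overlap either, although cortex replicate 2 of site 2 stood below the other cortex arrays. The differences were -1.99 ± 0.12 and -1.38 ± 0.31 (limma adjusted p = 9.23e-10 and 0.00655), and -1.80 at site 2 without that array. At the first site the probe sets disagreed in size, by 0.80 on the log2 scale, with an exact permutation p of 0.0079. At site 2 they differed by 0.34 (exact permutation p = 0.5). Without cortex replicate 2 of site 2 they stood further apart there, at -1.15 for 160538_at and -1.80 for 101017_at.

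The RefSeq window around the Cdk4 start, 250 bases before to 50 after it in GRCm38.p6, is printed because both Cdk4 probe sets were lower in retina at both sites, as were Myc and Mycn in the wider list below. It lies at chr10:127063285-127063584 on the plus strand, and capitals mark CACGTG, the E box that Myc and related factors bind.
Cdk4: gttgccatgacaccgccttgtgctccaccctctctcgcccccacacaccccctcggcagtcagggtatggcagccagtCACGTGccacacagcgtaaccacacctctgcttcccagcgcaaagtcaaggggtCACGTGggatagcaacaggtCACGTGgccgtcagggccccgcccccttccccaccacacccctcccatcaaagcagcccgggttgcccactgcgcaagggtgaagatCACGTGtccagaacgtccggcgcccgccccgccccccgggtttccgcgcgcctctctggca
The motif reads the same on both strands and occurred 4 times in this window, without overlap with the 3 matches to GGGCGG (either strand), a motif of 35.7% of all windows. One or more copies stood in 7.15% of the 32851 RefSeq promoter windows of this length, and 4 or more in 8 windows (0.0244%). Among the 8 windows that matched 6 members (Cdk6, Cdkn1b, Ccne1, Cdk4, Cdkn1a and Ccnd3), that of Cdk6 held it once and the other 6 did not hold these letters. Windows for Ccnd1, Ccnd2 and Rb1 were not used here. Neither TTTCCCGC nor TTTGGCGC, forms of the E2F site, stood in any of the 8 windows on either strand; they stood in 1.07% and 0.514% of all windows. A match describes letters only. The cutoff of 4 E boxes equals the count in the Cdk4 window, so the share of 0.0244% is a description and not a test. Whether Myc or Mycn acts on Cdk4 was not tested.

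Of the kinase inhibitors, Cdkn1a, a transcriptional target of p53, was lower in retina. By 98067_at it had 131, 142, 154, 150.2 and 166 scaled units in first-site retina, against 307, 325, 279, 266 and 319 in first-site cortex. The tissues did not overlap, and the difference was -0.94 ± 0.09 (limma adjusted p = 1.43e-07). At site 2 this probe set had 42.5, 76.3 and 110.0 in retina and 123, 87.7 and 119 in cortex, which overlapped, and the difference of -0.54 ± 0.28 did not pass (limma adjusted p = 0.183), although it did with all 16 arrays in 1 fit (limma adjusted p = 0.0381). By 94881_at the values were 67.2, 54.9, 89.5, 69.2 and 46.9 in first-site retina against 155, 149, 166, 153 and 118 in first-site cortex, and 73.5, 72.6 and 56.5 in site 2 retina against 181, 241 and 210.1 in site 2 cortex. All retina arrays lay below all cortex arrays at each site. That probe set was called at both, with differences of -1.03 ± 0.14 (limma adjusted p = 1.08e-05) and -1.43 ± 0.17 (limma adjusted p = 0.000105). The difference between the 2 probe sets' tissue differences had exact permutation p-values of 0.595 at the first site and 0.2 at site 2.

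The upstream of the 2 RefSeq windows of Cdkn1a is shown since it holds a match to the core of a p53 site, while another p53 target, Mdm2, is described below. It lies at chr17:29090729-29091028 (GRCm38.p6, plus strand), and capitals mark the fixed letters of CATGNNNNNNCATG.
Cdkn1a: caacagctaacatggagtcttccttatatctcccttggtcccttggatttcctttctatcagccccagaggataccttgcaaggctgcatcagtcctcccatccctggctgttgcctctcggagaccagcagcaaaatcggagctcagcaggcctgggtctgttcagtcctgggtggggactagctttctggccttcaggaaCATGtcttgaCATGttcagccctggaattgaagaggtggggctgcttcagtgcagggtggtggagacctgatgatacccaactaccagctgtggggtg
This motif, the same on both strands, stood once here, in none of the other 7 member windows and in 0.712% of all windows. The window held no GGGCGG.

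Cdkn1b, whose p27 product holds cells out of the cycle and is known from Mueller glia and neurons of the retina, gave opposite calls at the sites. At the first site 100278_at had 96.9, 84.0, 91.5, 89.6 and 58.8 scaled units in retina, against 50.8, 47.1, 60.4, 51.3 and 44.9 in cortex. Only retina replicate 5 fell within the range of the cortex arrays. The probe set was higher in retina by 0.58 ± 0.14 (limma adjusted p = 0.002), a call not made when all 16 arrays shared 1 fit (limma adjusted p = 0.0623). At site 2 the same probe set had 7.70, 4.13 and 3.51 in retina, all at or under background, against 34.4, 179.9 and 56.5 in cortex. The tissues did not overlap, and the cortex arrays spread widely among themselves, replicate 2 being the highest. The difference was -2.08 ± 0.44 (limma adjusted p = 0.00413), at least 4.12-fold lower in retina, and at least 2.58-fold without cortex replicate 2.

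The interaction of tissue and site for this probe set was -2.66 ± 0.40 (limma adjusted p = 0.000516), and -2.10 without cortex replicate 2 of site 2. It was called in all 16 fits that left out 1 array. Between sites, the retina arrays of site 2 were at least 4.85-fold lower than those of the first site (-2.31 ± 0.28, limma adjusted p = 5.7e-06), while cortex differed by 0.36 ± 0.28 (limma adjusted p = 0.444), and by -0.21 without cortex replicate 2 of site 2. The other probe set, 161010_r_at, was dim throughout, with 56.3, 39.5, 46.0, 39.1 and 47.3 in first-site retina, 36.1, 36.1, 49.7, 45.4 and 26.8 in first-site cortex, 18.7, 15.3 and 16.6 in site 2 retina and 17.7, 23.0 and 15.2 in site 2 cortex. Its tissues overlapped at both sites, with differences of 0.18 ± 0.15 and -0.06 ± 0.33 that did not pass (limma adjusted p = 0.383 and 0.971), the site 2 value being 0.23 without cortex replicate 2. Its interaction was -0.24 ± 0.30 (limma adjusted p = 0.799), and 0.05 without that array, so the opposite calls came from 1 of the 2 probe sets.

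Rb1, the target of the cyclin D kinases, was lower in retina by 97948_at. First-site values were 91.2, 101, 97.1, 122 and 89.8 in retina and 172, 161, 162, 176 and 146 in cortex. Those of site 2 were 137, 137 and 123 in retina and 216, 273 and 251 in cortex. The tissues did not overlap at either site. The differences were -0.63 ± 0.11 (limma adjusted p = 8.1e-05) and -0.81 ± 0.15 (limma adjusted p = 0.00217). Probe set 161858_f_at had 42.6 to 59.9 in first-site retina against 50.9 to 95.2 in first-site cortex, and 43.4 to 51.6 in site 2 retina against 60.0 to 147 in site 2 cortex. Its differences of -0.33 ± 0.15 and -0.67 ± 0.28 had the same sign and did not pass (limma adjusted p = 0.0901 and 0.0989). The site 2 difference was -0.33 without cortex replicate 2, the array at 147, and it passed with all 16 arrays in 1 fit (limma adjusted p = 0.0285).

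Many of the member probe sets differed between sites. In retina, 7 of 13 (53.8%) were called between sites, where 35.7% of all probe sets were called, 23.2% higher and 12.5% lower: Ccnd3 and Rb1 (97948_at) were higher at site 2, and both probe sets of Ccnd1, both of Cdkn1b and Cdkn1a (98067_at) lower. In cortex 6 of 13 (46.2%) were called, where 16.7% of all were called, 10.3% higher and 6.4% lower: Rb1 (97948_at) was higher at site 2, and both probe sets of Ccnd1, with Ccnd2, Cdkn1a (98067_at) and Cdkn1b (161010_r_at), were lower. For the interaction 2 of 13 (15.4%) were called, Ccnd2 positive and Cdkn1b (100278_at) negative. Of all probe sets 3.36% were called for the interaction, 2.07% positive and 1.3% negative.

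Ccnd1 by 94232_at was lower at site 2 in retina (-0.54 ± 0.10, limma adjusted p = 0.000356) and cortex (-0.53 ± 0.10, limma adjusted p = 0.00155). Its interaction was -0.02 ± 0.14, and -0.11 without cortex replicate 2 of site 2. By 94231_at the difference was -1.13 ± 0.16 in retina and -0.49 ± 0.16 in cortex (limma adjusted p = 2.79e-05 and 0.0442). The interaction of 94231_at was -0.64 ± 0.23, with a 95% interval of -1.12 to -0.17, and did not pass (limma adjusted p = 0.134). The cortex call was lost in 6 of 8 fits without 1 array and kept only without replicate 3 of either site. Cdkn1a by 98067_at was lower at site 2, with differences of -0.92 ± 0.18 in retina and -1.32 ± 0.18 in cortex (limma adjusted p = 0.000552 and 8.57e-05), whereas 94881_at differed by 0.05 ± 0.16 and 0.45 ± 0.16 (limma adjusted p = 0.871 and 0.0552). Ccnd2 in cortex was lower at site 2, with a difference of -1.10 ± 0.15 (limma adjusted p = 9.23e-05). Both Cdk4 probe sets had adjusted p-values above 0.05 in each tissue. The call of Ccnd3 in retina (0.35 ± 0.13, limma adjusted p = 0.0433) was lost in 6 of 8 fits without 1 array, and kept only without replicate 1 of site 2 or replicate 4 of the first site. That of Rb1 in retina (0.36 ± 0.12, limma adjusted p = 0.0218) was lost in 2 of 8, without replicate 1 or 2 of site 2. For Cdkn1b by 161010_r_at in cortex (-0.69 ± 0.21, limma adjusted p = 0.0309) it was lost in 4 of 8, without replicate 1 or 3 of site 2 or replicate 3 or 4 of the first site. Without centring, 1 of the 7 retina calls and 0 of the 6 cortex calls were made.

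**Figure D4:**
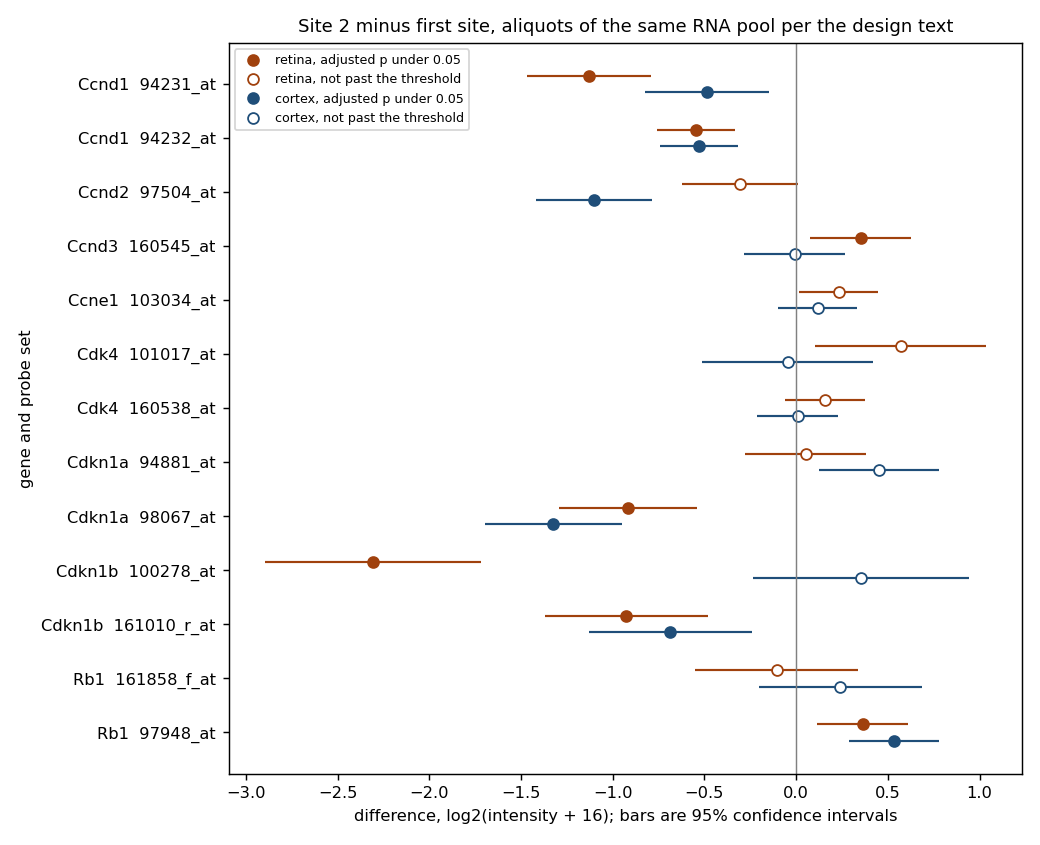
Site 2 minus first site difference of each probe set on the log2(intensity + 16) scale, for retina and cortex; bars are 95% confidence intervals and filled points passed an adjusted p of 0.05. Both Ccnd1 probe sets and Cdkn1a by 98067_at were lower at site 2 in both tissues, and Cdkn1b by 100278_at was lower in retina.

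Around the members, a wider list of 35 genes of the G1 to S machinery had 27 measured, each read from its brightest probe set. At the first site 6 were called higher and 13 lower in retina, where 21.9% and 25.2% of all probe sets were, with a median of -0.07 beside -0.06 over all probe sets. Those called lower include Ccna1, whose groups overlapped. It was at or under background on 5 of 5 retina and 3 of 5 cortex arrays there. At site 2, 5 were higher and 10 lower, where 16.7% and 15.9% of all were, with a median of -0.31 beside -0.02. The share higher was thus close to that of all probe sets at both sites. Leaving out 1 array gave 3 to 5 higher and 6 to 11 lower at site 2, with 3 higher on omitting retina array 1 or 2 and likewise cortex array 1 or 3, and 6 lower on omitting retina array 1. Higher in retina at the first site were Rbl2, a relative of Rb1 that acts in quiescent cells (1.27 ± 0.13), Ccndbp1, a cyclin D binding protein (1.14 ± 0.10), Mnat1, an assembly factor of the CDK-activating kinase (0.83 ± 0.09), Cdkn2c, an inhibitor of CDK4 and CDK6 (0.81 ± 0.13), Mdm2, the ubiquitin ligase for p53 (0.50 ± 0.09), and E2f5 (0.30 ± 0.10). All but E2f5 were also called higher at site 2. Cdkn2c stood at 317 ± 74 scaled units in first-site retina and 172 ± 13 in first-site cortex (SD, n = 5 each).

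The most negative difference in the wider list at both sites was that of Myc, a transcription factor that drives growth and proliferation, with every retina array at or under background. Its mean was 6.10 ± 3.20 in first-site retina and 147 ± 14 in first-site cortex (SD, n = 5 each), at least 6.10-fold lower in retina. The bound at site 2 was at least 8.03-fold lower in retina. Mycn, its relative in neural progenitors, differed by -1.88 ± 0.10 and -1.90 ± 0.16, and Cks1b, a small CDK-binding subunit, by -2.49 ± 0.12 and -1.71 ± 0.29 at the first site and site 2. The kinase Cdk2 differed by -0.70 ± 0.15 and -0.67 ± 0.20, the inhibitor Cdkn1c (p57) by -1.04 ± 0.10 and -1.03 ± 0.14, and the transcription factor E2f1 by -0.76 ± 0.18 and -0.83 ± 0.23. All 6 genes were called lower in retina at both sites.

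Among genes that E2F factors are known to activate, calls between the tissues were all toward lower in retina. Of 18 listed, 16 were measured, and at the first site 12 were called lower and none higher in retina, where 25.2% and 21.9% of all probe sets were. Among the 12 was Mcm6 (limma adjusted p = 0.0399), which was at or under background on every first-site array of both tissues. Its call therefore lies within background signal. At site 2, 8 were lower and none higher, where 15.9% and 16.7% of all probe sets were. The other 8 at site 2 did not pass, nor did the other 4 at the first site. Those 4, named here after their values were seen, were Pcna (0.22 at the first site, -0.25 at site 2), Rrm1 (-0.11, 0.10), Pola1 (-0.18, -0.49) and Cdt1 (-0.23, -0.36). The list's medians were -0.54 and -0.63, beside -0.06 and -0.02 over all probe sets. The largest differences were those of Rrm2, a subunit of ribonucleotide reductase (-2.91 ± 0.14 at the first site, -3.09 ± 0.18 at site 2), Cdk1, the mitotic kinase (-2.22 ± 0.28, -2.60 ± 0.24), and Uhrf1, which maintains DNA methylation at replication (at least 4.09-fold lower at the first site, -2.13 ± 0.27 at site 2). In retina, Rrm2 was at or under background on 4 of 5 first-site arrays, and Cdk1 on 2 of 5. At site 2, Rrm2, Cdk1 and Uhrf1 were each so on 2 of 3 retina arrays. The sizes of these differences therefore rest partly on background signal.

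Markers of dividing cells moved with these genes. Of 9 measured, 8 were called lower in retina at the first site and 7 at site 2. Their summed level lay between 503 and 669 scaled units in first-site retina and between 1035 and 1176 in first-site cortex, and between 337 and 367 in site 2 retina and between 993 and 1352 in site 2 cortex. In first-site retina 4 of the 9 were at or under background on every array, and in cortex none was. Of 7 genes of radial glia and progenitors, 2 were higher and 4 lower in retina at both sites. All 5 Mueller glia genes were higher at the first site, as were 4 of them at site 2, with first-site sums of 13227 to 14838 in retina and 3818 to 4129 in cortex. Endothelial genes gave 1 higher and 3 lower of 5 at both sites, microglial genes 2 lower of 5 at the first site and none called at site 2, and both measured erythroid genes were lower in retina at both. The part of any of these cell types in the members' differences was not tested. Beside these marker counts, 25.2% of all probe sets were called lower and 21.9% higher in retina at the first site. At site 2 the shares were 15.9% lower and 16.7% higher.

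**Figure D5:**
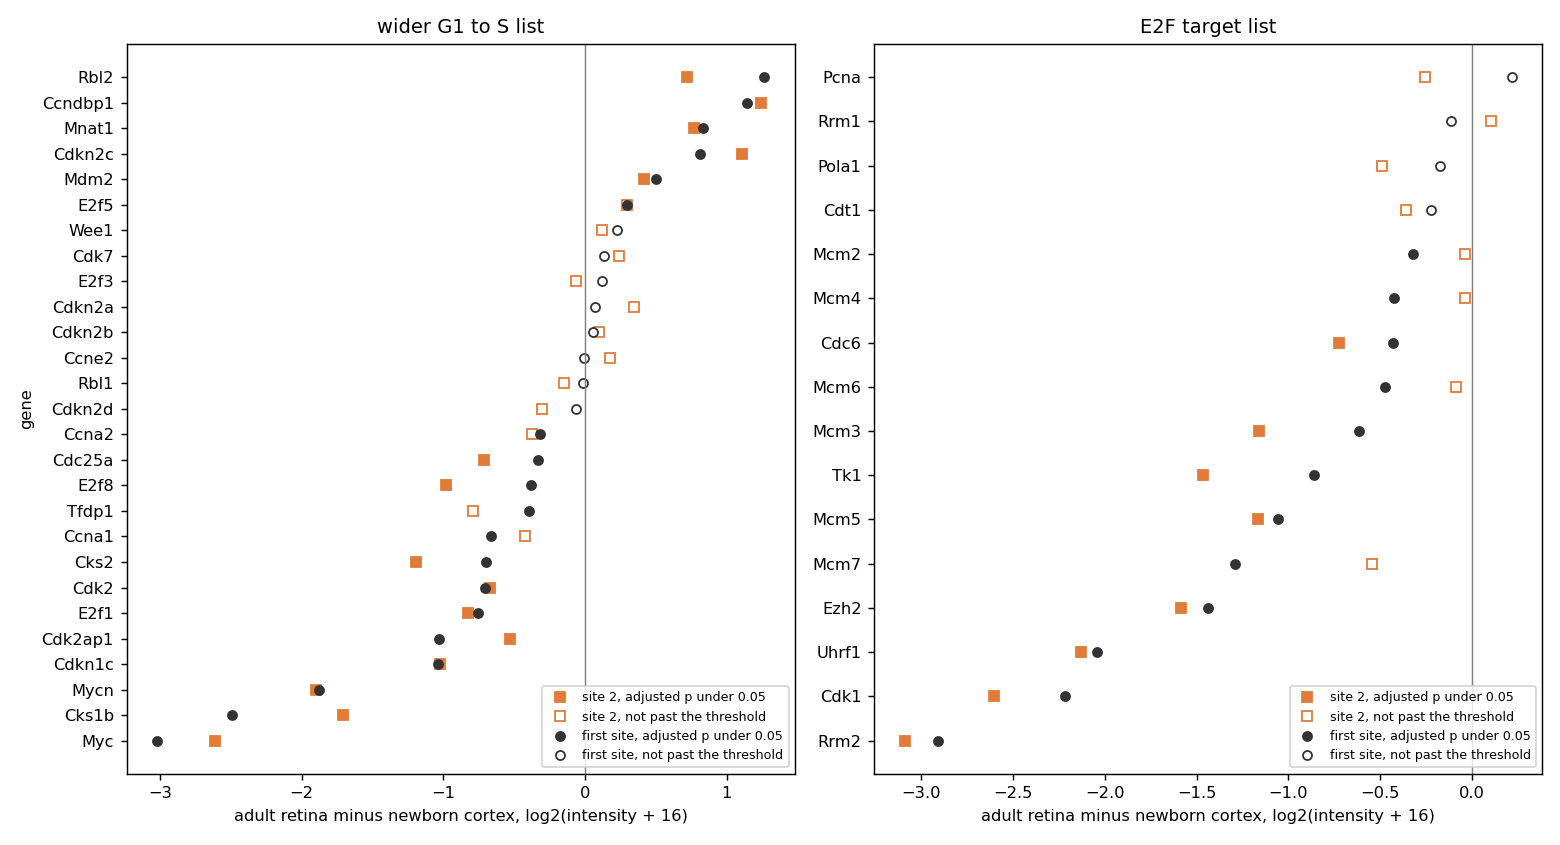
Retina minus cortex difference on the log2(intensity + 16) scale of the measured genes of the wider G1 to S list and of the E2F target list, at site 2 (squares) and the first site (circles); filled symbols passed an adjusted p of 0.05. The wider list runs from Myc, the lowest at both sites, to Rbl2 and Ccndbp1 at the top, and no E2F target was called higher in retina.

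The genes whose pattern over the 16 arrays lay closest to a member were found by the root mean square difference of their mean-centred log2 values, among 8250 genes. Cdk4 (160538_at) was closest to Trio and Ephb6 (0.094 and 0.104), Ccnd3 to A430005L14Rik and Desi1 (0.115 and 0.132) and Rb1 (97948_at) to Scaf8 and Tyrobp (0.117 and 0.132). The 2 members called for the interaction had more distant neighbours, as did Cdkn1a (98067_at), which was not called for it. Ccnd2 lay nearest to St8sia4 and Lmo7 (0.378 and 0.394), and Cdkn1b (100278_at) to Sp1 and Nrip1 (0.321 and 0.399), whose tissue differences also changed sign between the sites, at 0.34 and 0.21 at the first site and -1.61 and -1.75 at site 2. Sp1 and Nrip1 were picked for likeness to Cdkn1b, so their sign change is not separate evidence. Ccnd1 lay nearest to Nudcd3 and Slc30a3 (0.093 and 0.104), Ccne1 to Iars and Lrpprc (0.090 and 0.093) and Cdkn1a (98067_at) to Tes and Kcna3 (0.282 and 0.313). Small values are common for genes that vary little, and the 16 arrays share 2 RNA pools, so these are descriptions without a test.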

How the data were processed

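The authors deposited intensities on a linear scale, 1 value per probe set and array, per the file headers a series value table. How probes were summarised, how background was handled and which genome build applied is not stated in these sources. Of 12488 probe sets, 66 controls were left out. Of the 12422 tested, 10833 had 1 gene symbol in the platform annotation, 396 had several and 1193 are unnamed here. Summed intensity per array ran from 2478885 to 8639518; the number of arrays limits the precision.

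Values were turned into log2(intensity + 16), centred on each array's median and tested in R 4.3.3 with limma 3.58.1 (lmFit, eBayes with an intensity trend, two-sided, Benjamini-Hochberg over all probe sets, threshold 0.05). Each site was fitted on its own; interactions and between-site differences came from 1 fit over 16 arrays. Where all arrays of a group were at or under background, the fold is a bound from scaled intensities; this floor was chosen with the data known. Exact permutation tests used SciPy 1.17.1 in Python 3.11.15. The fit was tested on simulated data. Deviations of same-numbered retina and cortex arrays correlated between -0.187 and 0.080, and 1 of 8 arrays correlated best with its own number, so the numbers were not taken to pair arrays. Members, lists and the rule for named genes (all member probe sets, the wider list, up to 3 E2F targets per direction, the 2 closest patterns) were chosen with earlier results of these data known. The alternatives were constants of 1 and 50, no centring, quantile normalization, scaling to a median of 100 first, brighter probe sets only, no intensity trend, the replicate block, all 16 arrays in 1 fit, and leaving out each array. Applying them to the between-site comparisons and the lists was decided after seeing the data.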

Additional observations from a re-analysis of the deposited data

Results flagged for a closer look

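Of 26 groups of 5 arrays examined for a single distant array, 1 held one: cortex replicate 3 of the first site read 73.9 scaled units for Ccnd1 by 94231_at, where the other 4 cortex arrays lay between 101 and 109. Chance gives about 1 such group in 20.

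The interaction of tissue and site, site 2 minus the first site, passed the threshold for 2 probe sets. For Ccnd2 it was 0.80 (limma adjusted p = 0.0432). Its retina arrays were at or under background at both sites, so only bounds of the tissue differences exist, and the call was lost in 13 of 16 fits without 1 array and with a constant of 1 (limma adjusted p = 0.835). It therefore does not show that the tissue difference of Ccnd2 differed between sites. For Cdkn1b by 100278_at it was -2.66 (limma adjusted p = 0.000516), with retina above cortex at the first site and below it at site 2.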

How the results depend on the processing

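No called difference of a member changed sign: of 1119 member values under the alternatives and on leaving out arrays, 32 changed sign and 0 of those were called under either setting. Under the alternatives other than leave-outs, member values kept their side of the threshold in 108 of 112 cases at the first site and in 103 of 112 at site 2. Without centring, site 2 gave 0 members higher and 2 lower (781 of all probe sets called), the interaction gave 0 higher, and the between-site counts were 0 higher and 1 lower in retina and 0 higher and 0 lower in cortex. That setting leaves the differences in array brightness in the spread. With only the brighter probe sets tested, the first site gave 1 higher, and the interaction 0 higher and 0 lower. Retina between sites then gave 4 higher and 2 lower, and cortex between sites 2 higher and 2 lower. Dim member probe sets, among them those of Ccnd2 and Cdkn1b (100278_at), were not tested under that setting. Their calls are absent from these counts for that reason. With all 16 arrays in 1 fit the first site gave 1 higher, and at site 2 Ccnd1 (94231_at), Cdkn1a (98067_at) and Rb1 (161858_f_at) passed as well. The interaction gave 0 higher with a constant of 1. With a constant of 50, retina between sites gave 1 higher, and cortex between sites 2 higher and 3 lower. Retina between sites gave 1 higher with quantile normalization and 1 higher without the intensity trend. With the replicate block, though the numbers do not pair arrays, the interaction gave 0 higher, the Ccnd2 interaction of 0.80 having a limma adjusted p of 0.0912, and Rb1 by 161858_f_at passed at site 2 (limma adjusted p = 0.0359); the block changed no other member call. Leaving out each array in turn gave 2 to 2 members higher and 6 to 7 lower at the first site, 1 to 1 and 6 to 7 at site 2, 0 to 1 and 1 to 1 for the interaction, 0 to 2 and 5 to 5 for retina between sites, and 1 to 1 and 3 to 4 for cortex between sites. At site 2 the wider list gave 3 higher with a constant of 1, quantile normalization, prior scaling or no trend, and 0 higher and 1 lower without centring; E2F targets without centring gave 6 lower at the first site, and 3 lower at site 2. With the brighter probe sets only, the wider list had 7 lower (first site) and 5 lower (site 2), and the E2F targets 5 lower (site 2). Dim genes of the lists, such as Myc, were not tested under that setting. Where no cause is named above, the cause was not tested. Signals near the no-target controls, such as Ccnd2 in retina, allow only bounds.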
